A study of Mus musculus with 18 samples.

Results

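Metal handling in the liver was followed through 8 genes across 3 cell types and both operations of a bile duct ligation experiment. They are the metallothioneins Mt1 and Mt2, the metal-sensing transcription factor Mtf1, the importers Slc39a14, Slc39a8 and Slc39a5, and the exporters Slc30a1 and Slc30a10. They were chosen by name, and all 8 were found once each among the 54532 genes of the table. The libraries were made from polyadenylated RNA of cells isolated from mouse liver. Bile duct ligation (BDL) is surgery that blocks bile flow, and the sham operation (Sham) leaves the duct open. The 6 groups, of 3 libraries each, were primary hepatocytes (MPH) after BDL, MPH after Sham, biliary epithelial cells (BECs), the lining of the bile ducts, after BDL, BECs after Sham, Kupffer-like cells, so called after the macrophages that reside in liver sinusoids, after BDL, and Kupffer-like cells after Sham. The sources used here do not give strain, genotype, age, time after surgery, pooling of animals or how the cells were purified. The labels also do not say whether the libraries of a group came from separate mice, so p-values measure only the spread between these libraries.

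Metallothioneins are small cysteine-rich proteins that bind zinc and copper and buffer the free metal inside a cell. Mtf1 senses free zinc and binds metal response elements in the promoters of Mt1, Mt2 and Slc30a1. SLC39 (ZIP) carriers bring zinc, and some of them manganese and iron, into the cytosol, and SLC30 (ZnT) carriers take metal out of it. In the liver, interleukin 6 and glucocorticoids are also known to induce metallothioneins, interleukin 6 induces Slc39a14, and Slc30a10 exports manganese from hepatocytes.

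The promoters of Mt1 and Mt2 are shown because these genes moved together across the libraries and because Mtf1 acts through short motifs close to their starts. Mt1 and Mt2 are neighbours on chromosome 8, and both are read on the plus strand. The sequences are the 250 bases before each RefSeq start in GRCm38.p6, at chr8:94178839-94179088 for Mt1 and chr8:94172368-94172617 for Mt2. Capitals mark matches to TGCACNC or TGCGCNC, the core of the metal response element, on either strand.
Mt1: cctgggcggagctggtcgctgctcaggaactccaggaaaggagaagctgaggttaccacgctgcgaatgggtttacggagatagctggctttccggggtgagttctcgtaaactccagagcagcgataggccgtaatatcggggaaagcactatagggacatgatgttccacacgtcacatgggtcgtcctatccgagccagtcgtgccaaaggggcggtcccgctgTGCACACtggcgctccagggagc
Mt2: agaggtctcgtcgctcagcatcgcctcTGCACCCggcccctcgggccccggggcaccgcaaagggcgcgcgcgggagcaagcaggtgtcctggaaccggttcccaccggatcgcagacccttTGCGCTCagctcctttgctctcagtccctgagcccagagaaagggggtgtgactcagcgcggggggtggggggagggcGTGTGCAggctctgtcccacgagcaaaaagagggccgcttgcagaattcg
Mt1 had 1 match in these bases, from -23 to -17 counted from the start, and 2 more in the 50 bases after it. Mt2 had 3 matches here, the one nearest the start from -50 to -44, and 1 more in the 50 bases after it. Over the 300-base windows, that made 3 matches for Mt1 and 4 for Mt2. Of the 32851 promoter windows in the RefSeq table, 25.7% held at least 1 match, 1.97% at least 3 and 0.517% at least 4. The window of Slc30a1 held 2 matches and that of Slc30a10 held 3, of which 2 overlapped on opposite strands. Slc39a5 had 1 match and Slc39a8 had 1 in the second of its windows. None was found in the Mtf1 window, and 7 of the 8 genes were in the table, Slc39a14 being the exception. A match is a stretch of letters and does not show that Mtf1 binds there.

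Between 15451625 and 20577889 reads in genes per library were recovered from the deposited values, which are FPKM (fragments per kilobase of exon, scaled to a library size). The preparations were mixed to different degrees. The summed level of 16 hepatocyte markers was 71905 to 131402 FPKM in MPH after BDL and 58347 to 129448 FPKM in MPH after Sham, and none of the other groups exceeded 5892 FPKM. The summed level of 12 Kupffer cell markers was 3084 to 18957 FPKM in Kupffer-like cells after BDL and 8243 to 9713 FPKM after Sham. The MPH libraries also carried them, at 2241 to 6632 FPKM after BDL and 2422 to 10044 FPKM after Sham. The 15 biliary markers summed to 2826 to 3380 FPKM in BECs after BDL and 3898 to 4333 FPKM after Sham, and to at most 161 FPKM in any other library. In such bulk preparations, fewer cells of a type and less RNA per cell cannot be told apart. Transcripts of the Y chromosome were found in 2 MPH BDL, 2 MPH Sham, 1 BECs BDL, 2 BECs Sham, 1 Kupffer BDL and 1 Kupffer Sham library, so both sexes were present in each group.

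After ligation, Mt1 and Slc39a14 stood higher in every MPH library than in any sham MPH library, and Mt1 and Mt2 stood higher in every Kupffer-like library than in any sham one. Slc39a8 stood lower after ligation in all 3 cell types. Of these differences, only the lower Slc39a8 of Kupffer-like cells passed the test, which was limma on log2(FPKM + 1) with adjustment over all genes tested and a threshold of 0.05. Of the 7 members tested in MPH, 0 were called, against 1.57% of all genes, and 5 had an unadjusted p under 0.05, as did 22.6% of all genes. Of the 6 members tested in BECs, 0 were called, against 7.66% of all genes, and 2 had an unadjusted p under 0.05, as did 26.0% of all genes. Of the 6 members tested in Kupffer-like cells, 1 was called, lower after BDL, against 3.88% of all genes, and 3 had an unadjusted p under 0.05, as did 24.1% of all genes. limma voom on recovered reads gave the same 3 counts. The BDL and Sham libraries did not overlap for 3 members that were higher and 1 that was lower in MPH, where 11.8% and 18.4% of all genes tested did the same. In BECs, 1 member was lower without overlap, against 18.8% of all genes. In Kupffer-like cells, 3 were higher and 1 was lower without overlap, against 16.7% and 15.6% of all genes.

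**Figure D1:**
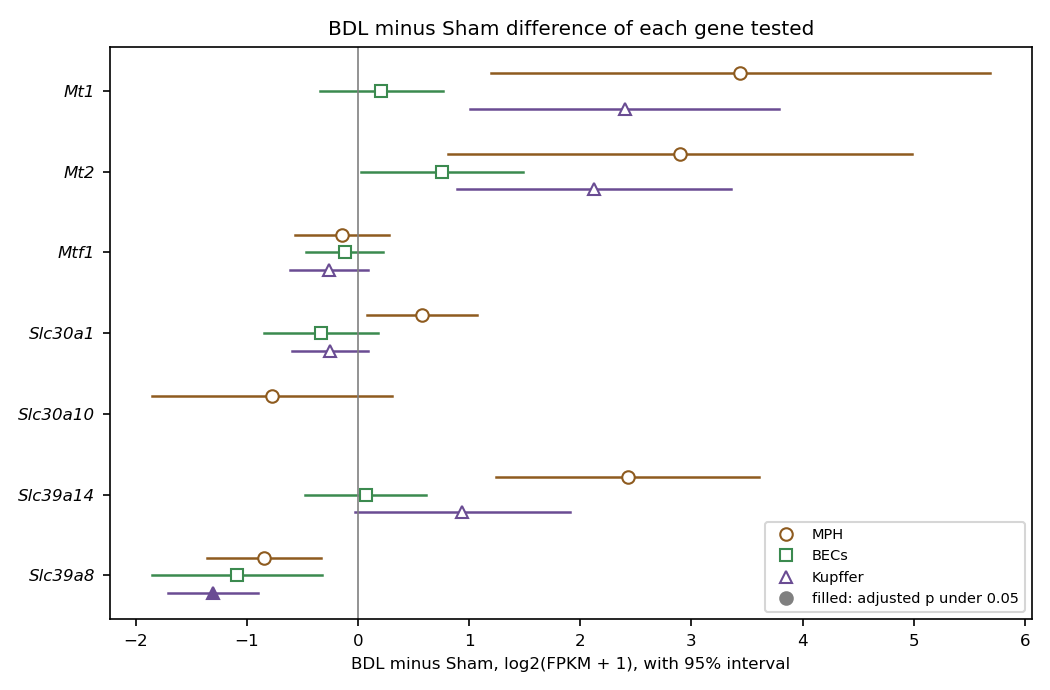
The BDL minus Sham difference on the log2(FPKM + 1) scale with its 95% interval from limma, for each member that passed the filter on low values, in MPH (circles), BECs (squares) and Kupffer-like cells (triangles). The single filled symbol is Slc39a8 in Kupffer-like cells, at -1.31, and the widest intervals are those of Mt1 and Mt2 in MPH.

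Mt1 (ENSMUSG00000031765, chromosome 8, 94179082 to 94180327, plus strand) was the most abundant member in every library. Gene positions throughout are those of GENCODE M21 on GRCm38, and values are listed by library number, which only names a library. In MPH it stood at 473, 2531 and 4034 FPKM after BDL, against 441, 88.2 and 94.9 FPKM after Sham. All 3 ligated libraries were above all 3 sham libraries, but the lowest ligated library was close to the highest sham one, and the other 2 ligated libraries were over 5 times higher than any sham library. The means were 2346 ± 1788 FPKM after BDL and 208 ± 202 FPKM after Sham (SD, n = 3 each), a ratio of 11.3. The log2 difference of 3.44 ± 0.95 (SE) had a 95% interval of 1.19 to 5.69 and an adjusted p of 0.107 by limma. Leaving out 1 library moved it between 2.81 and 4.36, the highest without the first ligated library, where the adjusted p was 0.0608. When all 18 libraries shared 1 estimate of the spread, the adjusted p was 0.00718. With that shared estimate, far more of all genes tested in MPH were called than the 1.57% given above. The same holds for the other MPH values given with it below. Marker sums of other cell types also stood higher in these MPH libraries. The sum of 8 monocyte markers was 371 to 531 FPKM after BDL and 194 to 254 FPKM after Sham, with 2 called higher, and that of 11 stellate cell markers was 183 to 329 FPKM after BDL and 66.9 to 160 FPKM after Sham, with 0 called by limma and 4 at an unadjusted p under 0.05. The sum of 9 neutrophil markers was 110 to 282 FPKM after BDL and 28.5 to 114 FPKM after Sham, with 0 of the 8 tested called by limma and 5 at an unadjusted p under 0.05. The part of these cell types in the MPH differences of the members was not tested.

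In BECs, Mt1 stood at 411, 319 and 433 FPKM after BDL and at 252, 357 and 406 FPKM after Sham. These groups overlapped, and the log2 difference of 0.21 had an adjusted p of 0.62 by limma. In Kupffer-like cells, Mt1 stood at 855, 572 and 183 FPKM after BDL, against 102, 85.8 and 67.6 FPKM after Sham. The 3 ligated libraries were all higher and spread widely, with means of 536.5 ± 337 FPKM after BDL and 85.1 ± 17.1 FPKM after Sham (SD, n = 3 each). The log2 difference was 2.40 ± 0.57 (SE), with an adjusted p of 0.0731 by limma. Leaving out 1 library moved it between 1.93 and 3.04, the highest without the third ligated library, which was the lowest. The adjusted p was then 0.00431 by limma. Of 16 alternative fits, with other settings or without 1 library, only this 1 called Mt1. Hepatocyte markers lay in the same direction in these cells, with 0 of 16 called by limma and 12 at an unadjusted p under 0.05. Their sum was 1684, 5892 and 3867 FPKM in the same 3 ligated libraries and 538 to 1246 FPKM after Sham. Their order over the ligated libraries was not that of Mt1, but 3 libraries are too few to relate the 2 levels. Monocyte and neutrophil markers were also higher in these cells. The monocyte sum was 692 to 863 FPKM after BDL and 256 to 563 FPKM after Sham, with 2 of 8 called higher, and the neutrophil sum was 854 to 2347 FPKM after BDL and 303 to 318 FPKM after Sham, with 4 of the 8 tested called higher. The part of hepatocyte, monocyte and neutrophil transcripts in the Mt1 and Mt2 differences was not tested.

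Mt2 (ENSMUSG00000031762, chromosome 8, 94172664 to 94173568, plus strand) had the same pattern at a far lower recorded level. In MPH it stood at 4.88, 26.2 and 57.7 FPKM after BDL and at 5.24, 0.673 and 1.18 FPKM after Sham. The first sham library, which was also the highest for Mt1, was above the first ligated one, so the groups overlapped. The log2 difference was 2.90 ± 0.88 (SE), with an adjusted p of 0.127 by limma and of 0.0133 when all 18 libraries shared 1 estimate of the spread. Without 1 library it lay between 2.16 and 3.82, the highest again without the first ligated one. In BECs, Mt2 stood at 9.93, 7.64 and 17.5 FPKM after BDL and at 5.82, 4.84 and 8.09 FPKM after Sham, with overlap. The log2 difference there was 0.76, with an adjusted p of 0.178 by limma. The highest value belonged to the third BECs BDL library, which also carried transcripts of squamous and pancreatic cells, and the part of these in its Mt2 level was not tested. In Kupffer-like cells, Mt2 stood at 16.6, 10.3 and 3.18 FPKM after BDL, against 0.928, 1.40 and 1.18 FPKM after Sham. The ligated libraries were all higher, in the same order as for Mt1. The log2 difference was 2.12 ± 0.51 (SE), with an adjusted p of 0.0736 by limma. Leaving out 1 library moved it between 1.67 and 2.70, the highest without the third ligated library, with an adjusted p of 0.00429 by limma. Of 15 alternative fits, only this 1 called Mt2.

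**Figure D2:**
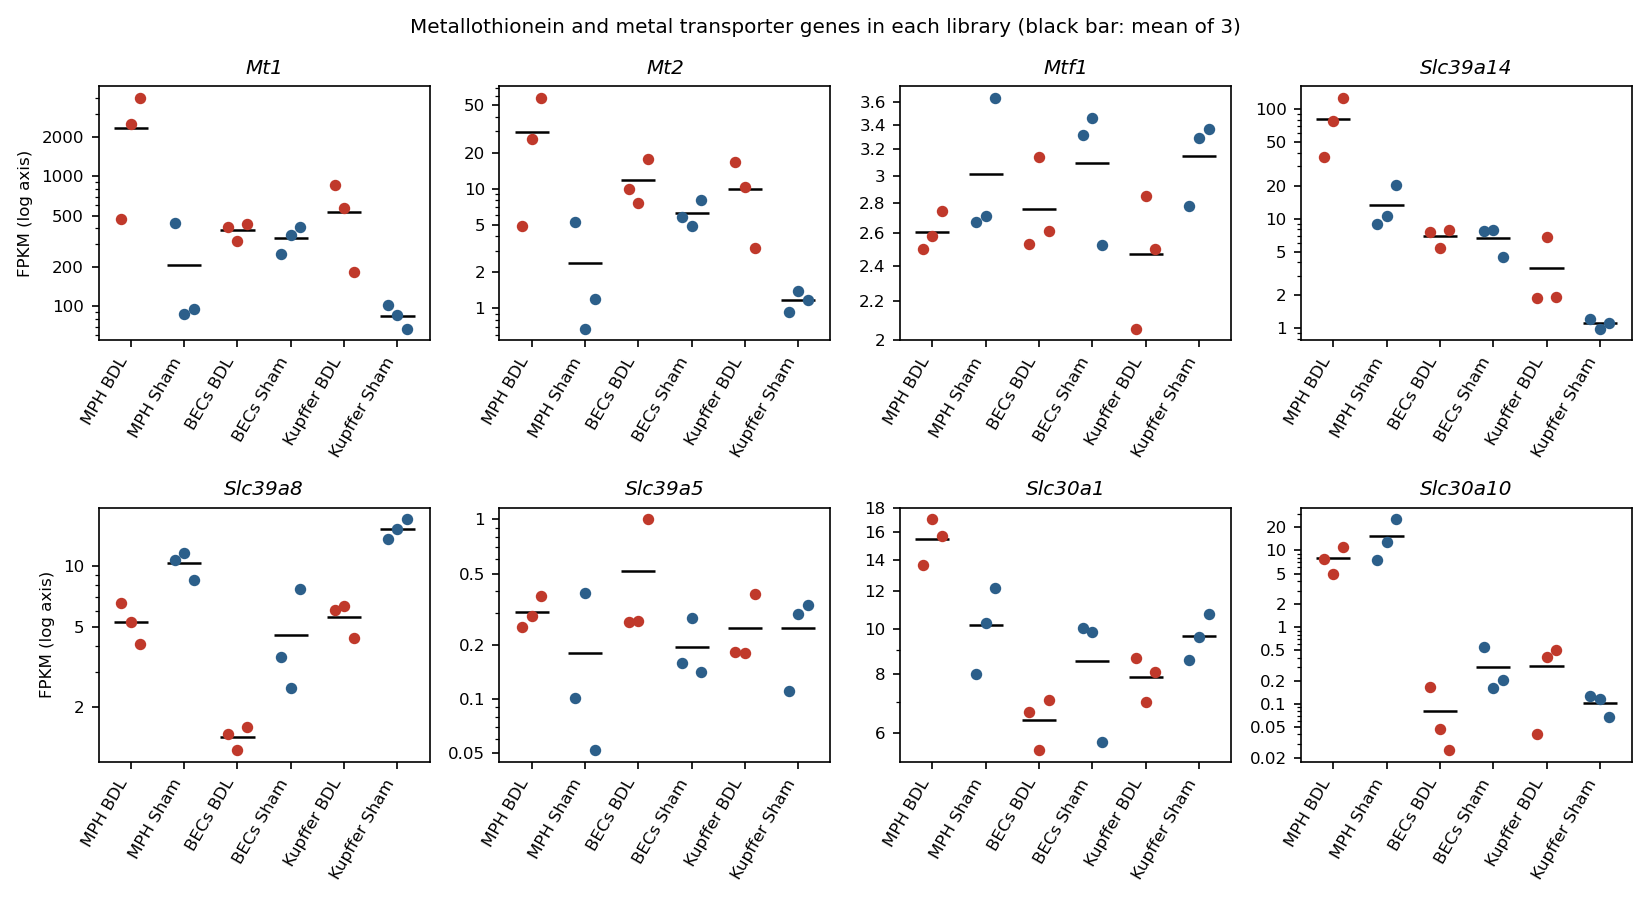
FPKM of the 8 members in each of the 18 libraries on log axes that differ between panels, with BDL in red, Sham in blue and the mean of 3 libraries as a black bar. Mt1 in MPH spans 473 to 4034 FPKM after BDL and 88.2 to 441 FPKM after Sham, while Mtf1 stays between 2.05 and 3.64 FPKM throughout.

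The reads behind the metallothioneins differed by 2 orders of magnitude. Mt1 had 1022 to 53947 recovered reads per library and Mt2 had 5 to 364. Mt2 gave 3.60 to 19.1 reads per 1000 Mt1 reads, with a median of 7.94. This ratio was 4.86 to 6.75 in MPH after BDL and 3.60 to 5.87 after Sham, 11.3 to 19.1 in BECs after BDL and 6.40 to 10.9 after Sham, and 8.21 to 9.14 in Kupffer-like cells after BDL and 4.30 to 8.22 after Sham. The ligated and sham libraries overlapped in this ratio in MPH and Kupffer-like cells but not in BECs, and within each operation every BECs library was above every MPH library. In the annotation, 432 of the 588 exon bases of Mt2 (73.5%) lie opposite exons of the antisense gene Gm45774, and 156 do not. Gm45774 was listed at 0.0401 to 4.27 FPKM. The strand setting of the counting is not given in the sources used here, and without strand, reads of Mt2 and Gm45774 cannot be told apart. The level of Mt2 is therefore uncertain, and the part of the overlap in its low count was not tested. None of the exon bases of Mt1 are shared, but the 1246 bases by which its FPKM is divided include an annotated transcript of 1 exon and 1085 bases, while its transcript of 3 exons has 549. Over the 18 libraries, log2(FPKM + 1) of Mt1 and Mt2 had a correlation of 0.953, and of 0.947 around the group means. These points share library and depth.

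**Figure D3:**
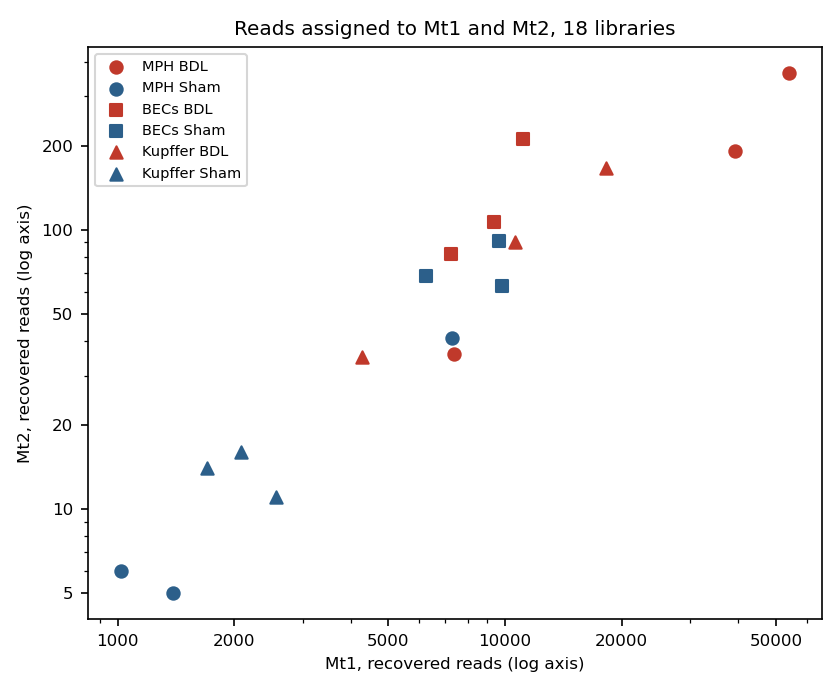
Recovered reads of Mt2 against those of Mt1 in the 18 libraries, both on log axes, with BDL in red and Sham in blue and a symbol per cell type. The points run from 2 sham MPH libraries with 5 and 6 Mt2 reads to the third ligated MPH library with 364, and the BECs libraries lie above the MPH libraries of like Mt1 reads.

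Mtf1 (ENSMUSG00000028890, chromosome 4, 124802104 to 124849800, plus strand), which encodes the zinc sensor, was recorded at a low and even level. Its group means ran from 2.47 FPKM in Kupffer-like cells after BDL to 3.15 FPKM in Kupffer-like cells after Sham. The log2 difference after ligation was -0.14 in MPH, -0.12 for BECs and -0.26 for Kupffer-like cells, with adjusted p of 0.674, 0.654 and 0.331 by limma. The ligated and sham libraries overlapped in each cell type. The 95% intervals reached from -0.56 to 0.28 in MPH, from -0.46 to 0.23 in BECs and from -0.61 to 0.09 in Kupffer-like cells. They include 0 and also changes up to these bounds. Of its 8907 exon bases, 721 are shared with 1110065P20Rik.

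Slc39a14 (chromosome 14, 70303469 to 70351425, minus strand) encodes ZIP14, an importer of zinc, manganese and iron. In MPH it stood at 36.4, 77.2 and 126.9 FPKM after BDL, against 8.87, 10.5 and 20.3 FPKM after Sham. All 3 ligated libraries were above all sham libraries, and the means were 80.2 ± 45.4 FPKM after BDL and 13.2 ± 6.16 FPKM after Sham (SD, n = 3 each), a ratio of 6.07. The log2 difference of 2.43 ± 0.50 (SE) had a 95% interval of 1.24 to 3.61 and an adjusted p of 0.0674 by limma, and an adjusted p of 0.00254 when all 18 libraries shared 1 estimate of the spread. In BECs the values were 7.62, 5.43 and 7.89 FPKM after BDL and 7.68, 7.93 and 4.51 FPKM after Sham. These groups overlapped and differed by 0.07 on the log2 scale, with an adjusted p of 0.877 by limma. In Kupffer-like cells the values were 1.88, 6.77 and 1.95 FPKM after BDL and 1.22, 0.996 and 1.11 FPKM after Sham. The ligated libraries were higher without overlap, by 0.94 on the log2 scale with an adjusted p of 0.216 by limma, and the second one stood far above the others. That library also had the highest hepatocyte marker sum of its cell type, 5892 FPKM, and the part of these transcripts was not tested.

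Slc39a8 (chromosome 3, 135825279 to 135888572, plus strand) encodes ZIP8, an importer of zinc and manganese. In Kupffer-like cells it stood at 6.04, 6.31 and 4.41 FPKM after BDL, against 13.5, 15.2 and 17.0 FPKM after Sham. It fell after ligation, with all ligated libraries below all sham ones, by a log2 difference of -1.31 ± 0.17 (SE) and an adjusted p of 0.0267 by limma. The call did not hold without any 1 of the sham libraries, where the adjusted p was 0.0888, 0.172 and 0.139, nor without the second ligated library, where it was 0.0681, although the log2 difference stayed between -1.39 and -1.17 whichever library was left out. It was also lost with no filter on low values (adjusted p = 0.134) and with the sex of the library as a covariate (adjusted p = 0.0593). In MPH, Slc39a8 stood at 6.53, 5.25 and 4.12 FPKM after BDL and at 10.7, 11.6 and 8.49 FPKM after Sham. In BECs it stood at 1.47, 1.23 and 1.60 FPKM after BDL and at 3.54, 2.49 and 7.68 FPKM after Sham. In both cell types the ligated libraries were lower without overlap. The log2 difference was -0.84 ± 0.22 (SE) in MPH and -1.09 in BECs, with adjusted p of 0.0906 and 0.0889 by limma, and with adjusted p of 0.0377 and 0.0219 when all 18 libraries shared 1 estimate of the spread.

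The summed markers of endothelial cells were also lower after ligation without overlap in Kupffer-like cells and BECs, while in MPH the sums overlapped. The summed level of 11 such markers was 506 to 1361 FPKM in Kupffer-like cells after BDL and 1770 to 2141 FPKM after Sham, with 4 of the 11 called lower and none higher. In BECs it was 88.5 to 126 FPKM after BDL and 193 to 259 FPKM after Sham, with 8 of the 11 called lower and none higher. In MPH it was 229 to 734 FPKM after BDL and 232 to 1058 FPKM after Sham, with 0 of the 11 called by limma and 1 at an unadjusted p under 0.05. Higher after ligation, without a call, were Lyve1 and Pecam1 in MPH, by 0.85 and 0.15 on the log2 scale, and Fcgr2b in BECs, by 0.26. None of the 11 markers was at 0 in any group. Over the 18 libraries, the correlation between log2(FPKM + 1) of Slc39a8 and of the marker sum was 0.874, and around the group means it was 0.418. These points share library, depth and cell type. Slc39a8 per 100 FPKM of endothelial markers was 0.444 to 1.25 FPKM in Kupffer-like cells after BDL and 0.711 to 0.794 FPKM after Sham, so the ratio overlapped where the level did not. It overlapped likewise in MPH, at 0.715 to 1.8 FPKM after BDL and 1.04 to 3.66 FPKM after Sham, and in BECs, at 1.27 to 1.41 FPKM after BDL and 1.11 to 2.96 FPKM after Sham. The part of endothelial transcripts in the Slc39a8 differences was not tested.

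**Figure D4:**
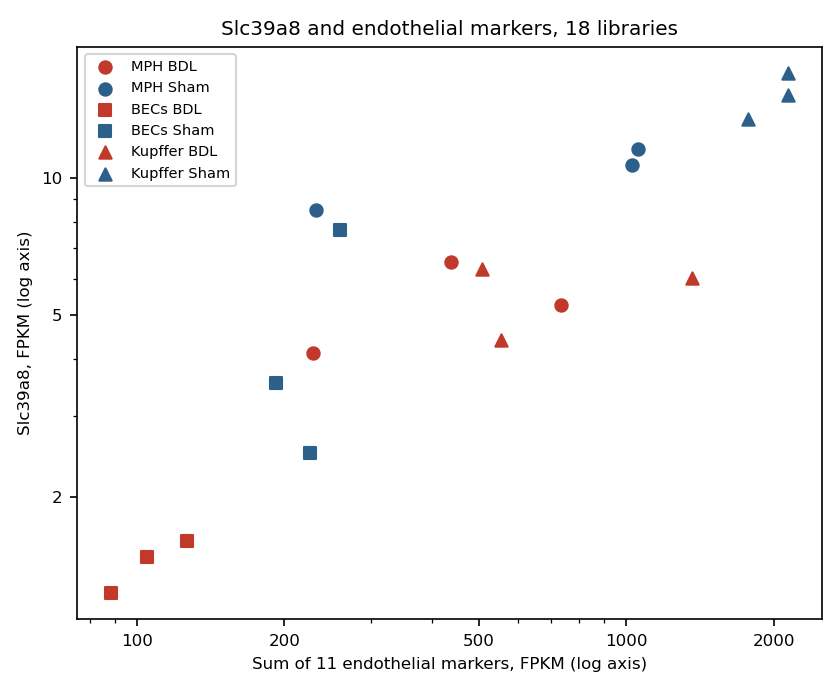
FPKM of Slc39a8 against the summed FPKM of 11 endothelial markers in the 18 libraries, both on log axes, with BDL in red, Sham in blue and a symbol per cell type. The sham Kupffer-like libraries lie at the upper right, with 13.5 to 17.0 FPKM of Slc39a8, and the ligated BECs libraries lie at the lower left, with 1.23 to 1.60 FPKM.

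Slc39a5 (chromosome 10, 128395931 to 128401229, minus strand) encodes ZIP5, an importer of the basolateral membrane of intestinal and pancreatic cells. It was near the floor of detection everywhere and passed the filter in no comparison. Its level was 0.0520 to 1.01 FPKM, and 17 of the 18 libraries held 1 to 16 reads. The third BECs BDL library held 46 reads, at 1.01 FPKM, beside 0.270 and 0.271 FPKM in the other 2 libraries of its group. In that library the pancreatic transcripts Try4 and Cela3b stood at 722 and 267 FPKM, against at most 26.2 and 13.8 FPKM in the other BECs BDL libraries. The first BECs Sham library also carried them, at 139.8 and 45.7 FPKM, and held 7 Slc39a5 reads, at 0.158 FPKM. The part of pancreatic transcripts in the Slc39a5 reads was not tested.

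Slc30a1 (chromosome 1, 191906767 to 191913247, plus strand) encodes ZnT1, which exports zinc across the plasma membrane. In MPH it stood at 13.6, 17.1 and 15.7 FPKM after BDL, against 8.03, 10.3 and 12.2 FPKM after Sham. The ligated libraries were higher without overlap, and the log2 difference of 0.57 ± 0.21 (SE) had an adjusted p of 0.173 by limma. In BECs it stood at 6.67, 5.53 and 7.05 FPKM after BDL and at 10.0, 9.84 and 5.74 FPKM after Sham. In Kupffer-like cells it stood at 8.67, 6.98 and 8.09 FPKM after BDL and at 8.58, 9.58 and 10.7 FPKM after Sham. Both of these comparisons overlapped, with log2 differences of -0.33 and -0.25 and adjusted p of 0.381 and 0.325 by limma. Of the 5244 exon bases of Slc30a1, 468 are shared with 1700034H15Rik.

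Slc30a10 (chromosome 1, 185454848 to 185468762, plus strand) encodes ZnT10, the manganese exporter, and was a transcript of the hepatocyte preparations. In MPH it stood at 7.81, 4.92 and 11.1 FPKM after BDL and at 7.55, 12.9 and 25.6 FPKM after Sham. The ligated and sham libraries overlapped, and the log2 difference of -0.77 ± 0.45 (SE) had an adjusted p of 0.358 by limma. In BECs it was 0.0250 to 0.168 FPKM after BDL and 0.163 to 0.544 FPKM after Sham, and in Kupffer-like cells 0.0399 to 0.503 FPKM after BDL and 0.0678 to 0.128 FPKM after Sham. These values rest on 3 to 63 reads, and Slc30a10 did not pass the filter in the ligation comparison of either cell type. In the ligated Kupffer-like libraries it had 4, 35 and 55 reads where the hepatocyte marker sum was 1684, 5892 and 3867 FPKM. Of its 5836 exon bases, 533 are shared with Gm2061.

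The levels of the members were next compared between cell types within each operation. The library sizes by which the deposited values are divided were 0.517 to 1.22 times the recovered reads. Scaling to recovered reads instead multiplies all genes of a library by the same factor. On the log2 scale, the mean factor of MPH differed by -0.76 from that of BECs and by -0.88 from that of Kupffer-like cells after Sham. After BDL it differed by -0.77 and -0.61. With 1 FPKM added, low genes move by less than these shifts. Differences between MPH and the other cells that are smaller than these shifts can depend on the scaling. After Sham, 4 of the 7 members tested differed between MPH and BECs, against 58.3% of all genes, 2 between MPH and Kupffer-like cells, against 56.8%, and 4 between BECs and Kupffer-like cells, against 43.9%. After BDL, 4 differed between MPH and BECs, against 46.0% of all genes, 3 between MPH and Kupffer-like cells, against 28.4%, and 1 between BECs and Kupffer-like cells, against 31.3%. Slc30a10 is counted in each of the 4 comparisons with MPH, where it passed the filter through the MPH libraries alone and so had to differ.

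Slc30a10 had the steepest order. It averaged 15.4 ± 9.29 FPKM in MPH, 0.304 ± 0.209 FPKM in BECs and 0.103 ± 0.0314 FPKM in Kupffer-like cells after Sham (SD, n = 3 each). On the log2 scale, MPH exceeded BECs by 3.50 and Kupffer-like cells by 3.74 after Sham, and by 2.99 and 2.72 after BDL. Every BECs and Kupffer-like library was below 1 FPKM, so these differences are given without a test, and BECs and Kupffer-like cells are not ordered. The level of Slc30a10 outside MPH was 1.01% of that in MPH in BECs after BDL and 1.98% after Sham, and 3.97% in Kupffer-like cells after BDL and 0.671% after Sham. The median of 16 hepatocyte markers was 0.735% and 3.29% in the same BECs groups and 6.39% and 1.03% in the same Kupffer-like groups. In all 4 groups Slc30a10 lay within the range of the hepatocyte markers. The part of hepatocyte transcripts in its level outside MPH was not tested.

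Slc39a14 was also highest in MPH. After Sham it exceeded Kupffer-like cells by 2.67 ± 0.29 (SE), with an adjusted p of 8.44e-05 by limma, and BECs by 0.83 ± 0.29 (SE), with an adjusted p of 0.0357. This last call was lost on values scaled to recovered reads (adjusted p = 0.574), with no filter (0.108), with all 18 libraries in 1 model (0.118) and without MPH library 3, BECs library 1 or 3 or Kupffer-like library 2 (0.0509 to 0.124). BECs exceeded Kupffer-like cells by 1.84, with an adjusted p of 0.000848 by limma. After BDL, MPH exceeded BECs by 3.19 and Kupffer-like cells by 4.15, with adjusted p of 0.00126 and 0.000974 by limma, and BECs and Kupffer-like cells did not differ beyond their spread. The BECs level was 8.71% of that in MPH after BDL and 50.8% after Sham, both above the highest hepatocyte marker of those groups, at 6.54% and 15.9%. The part of hepatocyte transcripts in the BECs level of Slc39a14 was not tested.

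Slc39a8 had another order, with Kupffer-like cells and MPH above BECs. After Sham, BECs were below Kupffer-like cells by -1.65 ± 0.30 (SE) and MPH exceeded BECs by 1.11 ± 0.30 (SE), with adjusted p of 0.00183 and 0.0109 by limma, of which the second became 0.26 on values scaled to recovered reads. The difference between MPH and Kupffer-like cells after Sham was -0.53, with an adjusted p of 0.158 that became 0.00702 on values scaled to recovered reads and 0.0272 without BECs library 3. After BDL, MPH exceeded BECs by 1.36 and BECs were below Kupffer-like cells by -1.43, with adjusted p of 0.00061 and 0.000765 by limma, and MPH and Kupffer-like cells differed by -0.07, or by -0.57 with an adjusted p of 0.048 on values scaled to recovered reads. The endothelial marker sum had the same order, with Kupffer-like cells highest and BECs lowest by group median in both operations.

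The metallothioneins were highest in BECs after Sham. Mt1 averaged 338 ± 78.4 FPKM in BECs, 208 ± 202 FPKM in MPH and 85.1 ± 17.1 FPKM in Kupffer-like cells (SD, n = 3 each). BECs exceeded Kupffer-like cells by 1.97 ± 0.55 (SE) for Mt1 and by 1.72 ± 0.43 (SE) for Mt2, with adjusted p of 0.0177 and 0.00945 by limma. The Mt1 call was lost with no filter (adjusted p = 0.0585) and without BECs library 2 or 3 or Kupffer-like library 3 (0.0563 to 0.0631), and the Mt2 call with all 18 libraries in 1 model (0.0625). MPH and BECs differed by -1.10 for Mt1, with an adjusted p of 0.119, and by -1.33 for Mt2, with an adjusted p of 0.0239 by limma. The Mt2 call was lost with no filter, with all 18 libraries in 1 model, and without MPH library 2 or 3 or BECs library 1 or 3 (adjusted p = 0.0561 to 0.122). On values scaled to recovered reads Mt1 also passed, at -1.84 with an adjusted p of 0.0271. Without the first sham MPH library, whose Mt1 level of 441 FPKM was over 4-fold those of the other 2, the difference for Mt1 was -1.85 with an adjusted p of 0.000504. After BDL the order of the means was MPH, Kupffer-like cells and BECs for Mt1, and no pair of cell types passed the test for Mt1 or Mt2. Without the first ligated MPH library, the lowest of its group, MPH exceeded BECs by 3.05 and Kupffer-like cells by 2.83 for Mt1, with adjusted p of 0.00796 and 0.0207 by limma. These were the highest values with 1 library left out, and the lowest were 1.51 and 1.27. The difference from Kupffer-like cells was called in this 1 of 19 alternative fits only. The Mt1 difference of 2.13 between MPH and BECs, with an adjusted p of 0.0628, also passed with limma voom (0.0491), with all 18 libraries in 1 model (0.0256) and without the third Kupffer-like library (0.0419).

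Slc30a1 did not differ between cell types after Sham on the deposited values. Its log2 difference between MPH and Kupffer-like cells was 0.06 there, with an adjusted p of 0.84 by limma. On values scaled to recovered reads, Slc30a1 was lower in MPH than in Kupffer-like cells, by -0.73 with an adjusted p of 0.0111 by limma. After BDL, MPH exceeded BECs by 1.15 ± 0.15 (SE) and Kupffer-like cells by 0.89 ± 0.15 (SE), with adjusted p of 0.000483 and 0.0042 by limma, which became 0.053 and 0.168 on values scaled to recovered reads. Mtf1 passed in no comparison on the deposited values, and scaled to recovered reads it was lower in MPH than in BECs by -0.58 after Sham and by -0.60 after BDL, and lower than in Kupffer-like cells after Sham by -0.70, with adjusted p of 0.00481, 0.0129 and 0.00162 by limma.

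**Figure D5:**
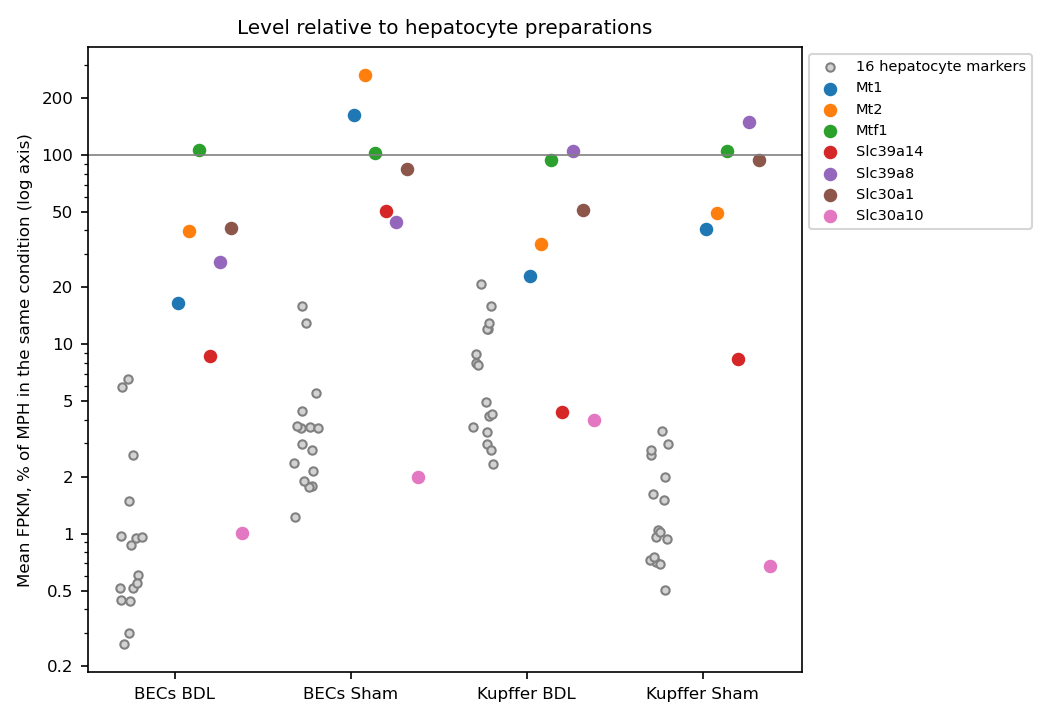
Mean FPKM in BECs and Kupffer-like cells as a percentage of the mean in MPH of the same operation, on a log axis, for 7 members (coloured points) and 16 hepatocyte markers (open grey points). Slc30a10 falls within the grey points in all 4 groups, at 0.671% to 3.97%, while the other members lie above the median marker except Slc39a14 in Kupffer-like cells after BDL, at 4.41%.

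Whether the response to ligation differed between cell types was tested as an interaction. For MPH against BECs, 0 of the 7 members tested were called by limma, against 1.60% of all genes, and 3 had an unadjusted p under 0.05, as did 17.8% of all genes. The response of Slc39a14 was larger in MPH by 2.36 ± 0.60 (SE), with an adjusted p of 0.0778, that of Mt1 by 3.23 ± 1.08 (SE), with an adjusted p of 0.156, and that of Slc30a1 by 0.91 ± 0.30 (SE), with an adjusted p of 0.156 by limma. Without the first ligated MPH library, the differences were 2.83 for Slc39a14 and 4.15 for Mt1, with adjusted p of 0.0229 and 0.0356 by limma. These were the highest values with 1 library left out, and the lowest were 1.94 and 2.60. Each was called in this 1 of 22 alternative fits only. For MPH against Kupffer-like cells, 0 of 7 were called, against 0.404% of all genes, and 1 had an unadjusted p under 0.05, as did 19.0% of all genes. That was Slc30a1 at 0.83, with an adjusted p of 0.118 by limma. Slc30a10 entered both comparisons through the MPH libraries alone. For BECs against Kupffer-like cells, 0 of 6 were called, against 3.50% of all genes, and 1 had an unadjusted p under 0.05, as did 21.4% of all genes. That was Mt1 at -2.19 ± 0.66 (SE), with an adjusted p of 0.0875 by limma. Without the third ligated Kupffer-like library, 2 were called, with Mt1 at -2.83 and Mt2 at -1.95 and adjusted p of 0.00258 and 0.0213 by limma. Leaving out 1 library moved Mt1 between -2.83 and -1.72 and Mt2 between -1.95 and -0.91. Each was called in this 1 of 22 alternative fits only. limma voom on recovered reads called 0 members in all 3 of these comparisons. The comparisons share libraries with those within each cell type.

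The wider metal machinery was described by lists. Of 11 other zinc importers of the SLC39 family, 9 were tested in each cell type and 0 were called after ligation. Of them, 1 in MPH, 3 in BECs and 2 in the Kupffer-like cells had an unadjusted p under 0.05. Their median log2 difference was 0.14 in MPH, 0.10 in BECs and 0.11 in the Kupffer-like cells, beside -0.06, -0.03 and 0.03 over all genes tested. Of all genes tested in MPH, BECs and Kupffer-like cells, 1.57%, 7.66% and 3.88% were called. An unadjusted p under 0.05 was held by 22.6%, 26.0% and 24.1%. These shares and medians of all genes also apply to the lists that follow. Of 8 other SLC30 exporters, 5 were tested and 0 were called in any cell type, with 1 in MPH at an unadjusted p under 0.05. Their medians were 0.54 in MPH, 0.00 in BECs and 0.02 in the Kupffer-like cells. Of 8 genes of copper handling, 8 were tested in MPH, 8 in BECs and 7 in the Kupffer-like cells, and 0 were called in any cell type, with medians of -0.50, -0.25 and 0.51 in the same order and 3, 3 and 1 at an unadjusted p under 0.05. The remaining metallothioneins, Mt3 and Mt4, did not pass the filter.

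Among 8 carriers of manganese and iron, all tested, 0 were called in MPH by limma, against 1.57% of all genes. There, 0 had an unadjusted p under 0.05, against 22.6% of all genes. In BECs 1 was called higher and 1 lower, against 7.66% of all genes called, and in Kupffer-like cells 1 was called higher, against 3.88%. An unadjusted p under 0.05 was held by 4 in BECs and 1 in Kupffer-like cells. Their median log2 difference was 0.18 in MPH, -0.12 in BECs and 0.07 in the Kupffer-like cells. In BECs, Slc11a1, an endosomal metal carrier of macrophages, rose by 1.29 on the log2 scale, with an adjusted p of 0.023 by limma. The gene called lower was Tfr2, the hepatocyte transferrin receptor, at 0.415 to 1.56 FPKM after BDL and 2.88 to 6.95 FPKM after Sham. Tfr2 met the filter there through the sham libraries, so its difference of -1.49 is given without a test. Slc11a1 rose beside myeloid markers. The monocyte sum of BECs was 166 to 354 FPKM after BDL and 118 to 128 FPKM after Sham, with 2 of 8 called higher, and the neutrophil sum was 304 to 466 FPKM after BDL and 34.0 to 118 FPKM after Sham, with 5 of the 8 tested called higher. The part of myeloid transcripts was not tested. Tfr2 fell beside the hepatocyte markers of BECs, which summed to 240 to 917 FPKM after BDL and 1738 to 4158 FPKM after Sham. In Kupffer-like cells, Trf, the gene of transferrin, made mainly by hepatocytes, rose by 1.92, with an adjusted p of 0.0242 by limma, beside the higher hepatocyte marker sum given above. The part of hepatocyte transcripts in either was not tested.

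Of 8 genes of interleukin 6 signalling, all tested, MPH had 1 called higher, BECs 2 and Kupffer-like cells 1, and 0 were called lower, with median log2 differences of 0.72, 0.08 and 0.52 in that order. Of all genes tested, 1.57%, 7.66% and 3.88% were called in the same order. An unadjusted p under 0.05 by limma was held by 3, 3 and 4 of the 8, beside 22.6%, 26.0% and 24.1% of all genes. The gene called in MPH was Il6 itself, at 6.97 to 16.1 FPKM after BDL and 0.191 to 2.38 FPKM after Sham. It met the filter there through the ligated libraries, so its MPH difference of 2.87 is given without a test. In BECs, Il6 rose by 1.14, with an adjusted p of 0.0398 by limma. It averaged 13.0 ± 5.26 FPKM after BDL and 1.01 ± 1.19 FPKM after Sham in MPH, and 30.9 ± 7.80 FPKM after BDL and 13.5 ± 3.54 FPKM after Sham in BECs (SD, n = 3 each). Il6ra, a receptor chain, rose by 0.65 in BECs, and Stat3, the transcription factor of the pathway, rose by 0.81 in Kupffer-like cells, with adjusted p of 0.0264 and 0.0406 by limma. Of 8 genes of the glucocorticoid response, all tested, 1 was called in MPH, 1 in BECs and 0 in the Kupffer-like cells. In the same order, 3, 2 and 4 had an unadjusted p under 0.05 by limma, and the medians were 0.62, -0.21 and 0.26. Per1, a clock gene induced by glucocorticoids, rose by 1.93 in MPH and Tsc22d3 fell by 0.70 in BECs, with adjusted p of 0.0313 and 0.0472 by limma. Of 8 genes of metal and oxidant stress, 7 were tested in MPH, 8 in BECs and 7 in the Kupffer-like cells, with medians of 0.75, 0.34 and 1.13. In BECs 1 was called higher and 3 had an unadjusted p under 0.05 by limma. In the Kupffer-like cells 1 was called higher and 6 had an unadjusted p under 0.05. Txnrd1, a thioredoxin reductase, rose by 1.25 in Kupffer-like cells, with an adjusted p of 0.0272 by limma. Slc7a11, the cystine carrier, stood at 4.09 to 10.8 FPKM in BECs after BDL and at 0.488 to 0.945 FPKM after Sham. It passed the filter through the ligated libraries alone, so its difference is given without a test. No gene of this list was called in MPH by limma, where 3 of the 7 tested had an unadjusted p under 0.05. Markers of other cell types were also higher in these preparations after BDL, as given above. Their part in the differences of the interleukin 6, glucocorticoid and stress genes was not tested.

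Genes with the most similar pattern were ranked by Pearson correlation of log2(FPKM + 1) over the 18 libraries, among 7691 genes with a mean of at least 5 FPKM. For Mt1 these were Mt2 at 0.953, Flot1 at 0.912, Il1r1 at 0.869, Lcn2 at 0.862 and Rpl7a-ps11 at 0.846. For Slc39a14 they were Por at 0.963, Cyp3a13 at 0.940, Rnase4 at 0.934, Serpina7 at 0.930 and H6pd at 0.926. For Slc39a8 they were Gpr182 at 0.938, Slc29a1 at 0.935, Dnase1l3 at 0.929, Ehd3 at 0.928 and Ap1b1 at 0.918, of which Gpr182 and Dnase1l3 are among the 11 endothelial markers. For Slc30a10 they were Insig2 at 0.987, Adtrp at 0.985 and Timd2, Slc23a1 and Masp2 at 0.983 each. Because the points share library, depth and cell type, these values describe likeness only. Mt1 and Slc39a14 had a correlation of 0.690 over all libraries and of 0.333 around the group means.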

How the data were processed

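Per the labels' protocols, RNA was extracted with TRIzol and prepared with a VAHTS Universal V6 kit. Per the submitters' processing notes, CASAVA 1.8, fastp, HISAT2 2.0.5, featureCounts 1.5.0-p3 and DESeq2 1.20.0 were used with GRCm38 (mm10). The annotation release is not given in the sources used here. The authors deposited 1 table of FPKM values for 54532 genes in 18 libraries. Cell type and treatment labels gave the groups.

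Library sizes were recovered as those at which FPKM times the exon length in GENCODE M21 gives whole reads: 53002 of 53636 genes (98.8%) were whole in all libraries, within 0.02 reads below 200 reads. Values were analysed as log2(FPKM + 1). Genes with at least 1 FPKM in at least 3 libraries of a comparison entered limma 3.58.1 (R 4.3.3, trend and robust, 2-sided), and a call was an adjusted p under 0.05, by Benjamini-Hochberg over all genes tested. Ligation was compared over 6 libraries, cell types over 9 and responses over 12. Fold changes on this scale understate those of low genes. The fit was tested on simulated data. No count table was used, and limma voom on recovered reads was an alternative.

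MPH and Kupffer-like libraries share 3 numbers in their titles. Deviations from group means correlated at 0.236, 0.346 and 0.319 within these pairs, over 12430 genes, and at -0.329 to 0.232 in 15 other pairs, so the number was taken to pair them and served as a block in an alternative. Members, lists and tests were chosen with earlier results of these data known. All 8 members were named, then up to 3 called genes per list and comparison, and the 5 most similar genes of 4 members. Marker lists counted beside results were hepatocyte, biliary, Kupffer cell, endothelial, stellate cell, monocyte and neutrophil.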

Additional observations from a re-analysis of the deposited data

How the results depend on the processing

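The counts of members called were recomputed with other pseudocounts, filters, scalings, fits and covariates and without each library. With all 18 libraries in 1 model, 4 members were called in MPH (Mt1, Mt2, Slc39a14 and Slc39a8) and 1 in BECs (Slc39a8). In MPH this model called far more of all genes tested than the 1.57% called over 6 libraries. Calls in MPH therefore rose beyond these members too, and whether the members gained more calls than other genes was not tested. In BECs this model called fewer of all genes tested than the 7.66% called over 6 libraries. In Kupffer-like cells 0 members were called with no filter on low values and 0 with sex as a covariate. Between MPH and BECs after Sham, 2 were called with no filter and 2 with all 18 libraries in 1 model. Between MPH and Kupffer-like cells after Sham, 5 were called on values scaled to recovered reads, and there Slc30a1 changed sign, to -0.73. Leaving out 1 library moved the count from 0 to 3 for ligation in Kupffer-like cells, 1 to 4 for MPH against BECs and 1 to 3 for MPH against Kupffer-like cells after Sham, and 0 to 2 for the response of MPH against BECs and of BECs against Kupffer-like cells. For BECs against Kupffer-like cells after Sham it moved from 3 to 4. After BDL it moved from 3 to 5 for MPH against BECs and from 2 to 3 for MPH against Kupffer-like cells. It stayed at 1 for BECs against Kupffer-like cells after BDL. It stayed at 0 for ligation in MPH and in BECs and for the response of MPH against Kupffer-like cells. These fits also have fewer libraries, and the cause of the moves was not tested. Where a left-out library left 2 in a group, the fit pooled the spread over groups. With the title number as a replicate block, 2 members were called between MPH and Kupffer-like cells after Sham, with Slc39a14 at 2.71 and Slc30a10 at 3.80, and 0 in the response of MPH against Kupffer-like cells, so the block changed no call. Of 1520 single values under all alternatives, 1428 kept direction and side of the threshold, 27 lost a call, 24 gained one and 41 changed sign, of which 40 were called under neither setting. On values scaled to recovered reads, the log2 differences that changed sign were also Slc30a1 at -0.43 for MPH against BECs and Mt2 at -0.075 for MPH against Kupffer-like cells after Sham, Mtf1 at -0.36 for MPH against Kupffer-like cells after BDL, and the Slc30a1 response of BECs against Kupffer-like cells at 0.16. With median ratio scaling they were Slc30a1 for MPH against Kupffer-like cells after Sham, at -0.0021, and the Mtf1 response of MPH against BECs, at 0.0103. The Slc30a10 response of MPH against BECs was 0.29 with a pseudocount of 0.1, 1.11 with 0.01 and 1.23 with limma voom, in place of -0.51, and the Slc39a8 response of BECs against Kupffer-like cells was -0.0162, -0.0548 and -0.0444 in the same settings, in place of 0.22. Leaving out 1 library gave differences on both sides of 0 after ligation for Slc39a14 in BECs (-0.16 to 0.22). After Sham it did so for Mtf1 (-0.14 to 0.0314 for MPH against BECs, -0.16 to 0.0044 for MPH against Kupffer-like cells, -0.0862 to 0.0838 for BECs against Kupffer-like cells), Mt2 (-0.18 to 0.77) and Slc30a1 (-0.0713 to 0.20) for MPH against Kupffer-like cells, and Slc30a1 for BECs against Kupffer-like cells (-0.31 to 0.0461). After BDL it did so for Mtf1 (-0.10 to 0.0153 for MPH against BECs, -0.0241 to 0.14 for MPH against Kupffer-like cells), Slc39a8 for MPH against Kupffer-like cells (-0.21 to 0.0711), and Mt1 (-0.86 to 0.25) and Mt2 (-0.22 to 0.81) for BECs against Kupffer-like cells. Among responses it did so for Mtf1 (-0.0874 to 0.0863) and Slc39a8 (-0.13 to 0.53) of MPH against BECs and for Slc39a8 (-0.0628 to 0.59) and Slc30a1 (-0.31 to 0.0421) of BECs against Kupffer-like cells. Depth limits Mt2, Slc39a5 and, outside MPH, Slc30a10.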

Other observations

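The third BECs BDL library stood apart in several genes. Mt3 and Mt4 were on a list above, and Mt1, Mt2 and Slc39a5 are members. The other genes were chosen after their values were seen. Mt4, a metallothionein of stratified squamous epithelium, was at 171 FPKM there, on 1402 reads, while it was listed at 0 in 15 of the other 17 libraries and at no more than 0.169 FPKM in the rest. The keratins of such epithelium were high in the same library, with Krt13 at 963, Krt4 at 658, Krt5 at 185 and Krt14 at 140 FPKM, against at most 0.343 FPKM for any of them in the other BECs BDL libraries and 16.3 FPKM in the rest of the series. The pancreatic transcripts Try4 and Cela3b reached 722 and 267 FPKM, against at most 139.8 and 45.7 FPKM elsewhere, both in the first BECs Sham library. Mt3, the neuronal metallothionein, had 16 reads there, at 0.730 FPKM. That library also had the highest Mt2 and Slc39a5 levels of the BECs, at 17.5 and 1.01 FPKM, while its Mt1, at 433 FPKM, lay close to the highest sham BECs library, at 406 FPKM.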
